A study of Mus musculus with 47 samples.

Results

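The smooth muscle contractile genes are 10 genes whose products build and regulate the contractile apparatus of the muscle coat of the gut: Acta2, Actg2, Myh11, Tagln, Des, Cnn1, Mylk, Lmod1, Smtn and Synm. They were taken by symbol from an exon count table of 38087 genes, and all 10 were found and passed the filter on low counts in every comparison. The libraries came from male C57BL/6j mice of 15 to 16 weeks with free access to food, and each was a total RNA library of duodenum or ileum. Germ-free mice (GF, raised without microorganisms) gave 11 ileum and 12 duodenum libraries, and conventionally raised mice (convR, with a gut flora) gave 12 ileum and 12 duodenum libraries. Tissue was taken at 6 points of the day, named by zeitgeber time (ZT, counted in hours from lights on): 2, 6, 10, 14, 18 and 22, with 2 libraries per group and time, except GF ileum at ZT2 with 1. No label says that libraries are separate animals, and p-values then cover only the spread among these samples, which may be technical.

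Smooth muscle of the small intestine lies in a circular and a longitudinal layer and in the thin muscularis mucosae. It contracts when calcium switches on a kinase that phosphorylates myosin, which then pulls on actin filaments anchored in the cell by intermediate filaments. Most of its contractile genes are switched on by serum response factor (SRF) and its partner myocardin, through a DNA motif called the CArG box.

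The members fall into 4 roles, and their positions are given on mm10 from the GENCODE M21 annotation. The actins are Acta2 (ENSMUSG00000035783, chr19:34241090-34255590, minus strand), the alpha-actin found in most smooth muscle, and Actg2 (ENSMUSG00000059430, chr6:83512905-83536265, minus strand), the gamma-actin typical of gut muscle. The motor genes are Myh11 (ENSMUSG00000018830, chr16:14194535-14291372, minus strand), the smooth muscle myosin heavy chain, and Mylk (ENSMUSG00000022836, chr16:34745210-35002420, plus strand), the myosin light chain kinase. The actin-filament genes are Tagln (ENSMUSG00000032085, chr9:45929619-45936058, minus strand), the actin-bundling transgelin, and Cnn1 (ENSMUSG00000001349, chr9:22099216-22109630, plus strand), calponin, which binds actin and restrains myosin. To these belong Lmod1 (ENSMUSG00000048096, chr1:135324807-135368065, plus strand), leiomodin, which starts new actin filaments, and Smtn (ENSMUSG00000020439, chr11:3517523-3540612, minus strand), smoothelin, an actin-associated protein of contractile smooth muscle. The intermediate filament genes are Des (ENSMUSG00000026208, chr1:75360329-75368579, plus strand), desmin, and Synm (ENSMUSG00000030554, chr7:67730160-67759742, minus strand), synemin, a large partner of desmin. Acta2 and Actg2 encode near-identical proteins. How reads that match both genes were counted is not given in the sources used here, and how many there were was not tested. Exons of Tagln, Des, Smtn and Synm overlap genes on the opposite strand (Pcsk7 at 64.1 CPM on average, Gm15179 at 0.00684 CPM, Gm11946 at 5.89 CPM and Ttc23 at 10 CPM), and the strand setting of the counting is not given in the sources used here.

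The CArG box is shown because these genes are its textbook targets and moved together in the ileum. RefSeq promoters on GRCm38.p6 (the assembly of mm10) were given for 7 of the 10 members, Acta2, Des, Cnn1, Mylk, Lmod1, Smtn and Synm, and the 250 bases before each start were searched on both strands for the box of 10 bases. The starts are those of RefSeq, and some differ from the GENCODE positions given above. The stretches of Mylk (chr16:34784700-34784949) and Smtn (chr11:3539293-3539542) lay inside the GENCODE gene. That of Acta2 lay mostly inside it, and those of Cnn1 and Lmod1 overlapped it in a smaller part. None of the 7 promoters held a perfect box, against 1.47% of 32851 promoters searched in the same way. Allowing up to 1 mismatch, 3 of the 7 held a match, against 18.6% of all promoters, and 2 of the 7 held at least 2 such matches, against 2.96%. The stretches that hold these matches follow, with the box in capitals and up to 25 bases on either side.
Acta2, box nearer the far end (chr19:34255423-34255482, minus strand): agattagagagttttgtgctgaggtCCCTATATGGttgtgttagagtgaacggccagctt
Acta2, box nearer the start (chr19:34255374-34255432, minus strand): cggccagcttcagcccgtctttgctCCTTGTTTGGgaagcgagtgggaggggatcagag
Lmod1, box nearer the far end (chr1:135324599-135324658, plus strand): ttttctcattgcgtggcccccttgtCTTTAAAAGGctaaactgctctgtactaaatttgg
Lmod1, box nearer the start (chr1:135324624-135324683, plus strand): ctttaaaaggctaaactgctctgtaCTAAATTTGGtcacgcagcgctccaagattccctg
Synm (chr7:67759947-67759992, minus strand): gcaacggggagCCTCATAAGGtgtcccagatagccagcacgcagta
The matches of Acta2 lay 84 to 75 and 34 to 25 bases before the start, those of Lmod1 189 to 180 and 164 to 155 bases, and that of Synm 239 to 230 bases. A match describes letters only, and nothing here measured binding of SRF.

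Depth was 22.55 to 41.91 M counts per library, with a median of 31.94 M. Counts were scaled to CPM (counts per M counts of a library) with the trimmed mean of M values (TMM) over all 47 libraries. In all, 9 libraries stood apart by the level of pancreas or stomach markers, by their scaling factor or, in ileum, by a low level of Fabp6, the ileal bile acid binding protein: 1 GF ileum, 1 convR ileum, 3 GF duodenum and 4 convR duodenum libraries. Results that change without them are given with both values. In bulk tissue, fewer cells of a type and less RNA per cell cannot be told apart.

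By the median of their summed level, the 10 genes made up a larger share of the counts in ileum than in duodenum, and in GF ileum than in convR ileum. This sum ran from 2615 to 3473 CPM in GF ileum (median 2849 CPM), from 1957 to 2856 CPM in convR ileum (median 2250 CPM), from 1180 to 1555 CPM in GF duodenum (median 1355 CPM) and from 1077 to 1955 CPM in convR duodenum (median 1298 CPM). Each GF ileum library lay above the median of convR ileum, though the ranges overlapped. The sum is not scaled by gene length, and Myh11 and Mylk were its largest parts in each group. They averaged 928.1 and 676.2 CPM in GF ileum, and 386.9 and 493.6 CPM in GF duodenum. None of the 10 genes averaged below 1 CPM in any group.

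Per length of exon, Acta2 was the highest member in all 4 groups, with 217 ± 16.4 RPKM (CPM on the TMM scale per kilobase of exon) in GF ileum, 179.6 ± 24.2 in convR ileum, 86.6 ± 10.1 in GF duodenum and 88.8 ± 20 in convR duodenum (SD over libraries). Myh11 came next, with 139.9 ± 15.6 RPKM in GF ileum, 108 ± 13.8 in convR ileum, 58.3 ± 7.26 in GF duodenum and 56.0 ± 14.6 in convR duodenum. The gut actin Actg2 changed its place in the order. It reached 137 ± 14.9 RPKM in GF ileum, where it stood in place 3, within 1 SD of Myh11 and Tagln. In convR ileum it reached 71.0 ± 15.5 RPKM and stood in place 4, after Tagln at 106 ± 12.5 and within the spread of Mylk at 59.6 ± 6.03. In GF duodenum it stood in place 5 with 38.2 ± 6.20 RPKM, and in convR duodenum likewise with 30.2 ± 7.02. Lmod1 and Smtn were the lowest members in every group, between 3.11 and 6.56 RPKM on average. Smtn is per length of the deposited exon length of 8012 bases, while the merged exons of GENCODE M21 come to 4380 bases, so its place depends on the annotation. Where neighbours in the order differed by less than their SDs, as Myh11 and Tagln or Cnn1 and Des in ileum, their order is not resolved.

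**Figure D1:**
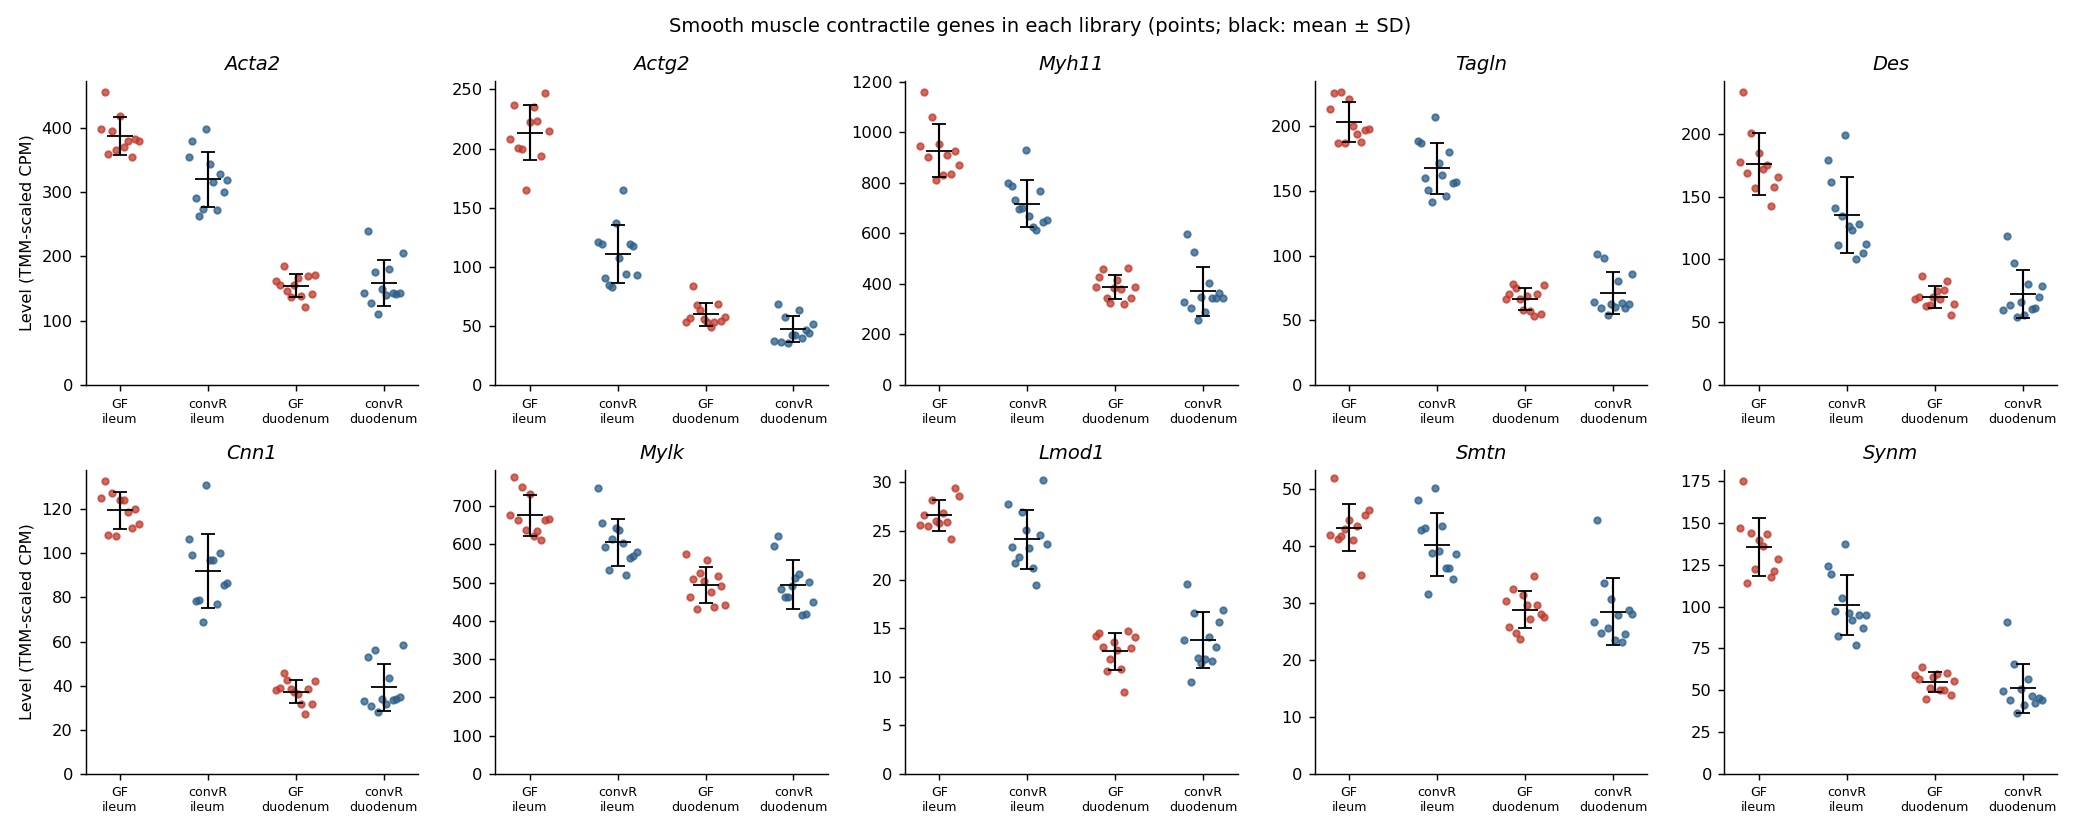
Level of each smooth muscle contractile gene in TMM-scaled CPM (vertical axis, from 0) in every library of the 4 groups, with GF in red and convR in blue; points are libraries and black bars the mean ± SD. Actg2 shows the widest gap between GF ileum and convR ileum, and the points of the ileum lie above those of the duodenum for Acta2, Actg2, Myh11, Tagln and Cnn1 in both GF and convR.

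The first comparison asks how the muscle transcripts of the ileum differ between GF and convR mice. Of the 10 genes 9 were higher in GF ileum (edgeR quasi-likelihood test, Benjamini-Hochberg adjusted p under 0.05 over 18082 genes), 0 were lower, and Smtn did not pass. Of all genes tested, 19.5% were higher. The median log2 fold change was 0.33 over the members and 0.01 over all genes tested. For 0 of the members did every GF library exceed every convR library, against 1.52% of all genes tested. The count of 9 was the same with each of the 23 ileum libraries left out in turn.

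The actins differed in size. Actg2 had 165 to 246.6 CPM in GF ileum (median 215.1 CPM), against 82.9 to 165.1 CPM in convR ileum (median 112.5 CPM). The groups met at a single point: 10 of the 11 GF libraries lay above the highest convR library, and 11 of the 12 convR libraries lay below the lowest GF library. The fold was 1.94, or 0.95 ± 0.097 on the log2 scale (SE, adjusted p = 1.53e-07). Acta2 had 353.9 to 455.4 CPM in GF ileum (median 379.6 CPM), against 262.6 to 397.8 CPM in convR ileum (median 317.4 CPM). Its ranges overlapped, with 9 of 12 convR libraries below the lowest GF library, and the log2 fold change was 0.29 ± 0.062 (SE, adjusted p = 9.68e-04).

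Both motor genes rose, by less than Actg2. Myh11 had 810.8 to 1158 CPM in GF ileum (median 908.5 CPM), against 613.9 to 929.3 CPM in convR ileum (median 698.6 CPM), and 11 of 12 convR libraries lay below the lowest GF library. Its log2 fold change was 0.36 ± 0.078 (SE, adjusted p = 7.52e-04). Mylk had 611.5 to 777.4 CPM in GF ileum (median 665.2 CPM), against 520.8 to 748.4 CPM in convR ileum (median 598.9 CPM), and 0.17 ± 0.053 log2 (SE, adjusted p = 0.014). The gene count of Mylk pools the long and short kinases and telokin, which are read from the same locus.

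Among the actin-filament genes Tagln and Cnn1 rose, Lmod1 rose slightly and Smtn did not pass. Cnn1 had 107.9 to 132.7 CPM in GF ileum (median 120.2 CPM), against 68.7 to 131.2 CPM in convR ileum (median 91.7 CPM), which is 0.39 ± 0.078 log2 (SE, adjusted p = 4.17e-04). All convR libraries but 1, that of ZT22 replicate 1, lay below the lowest GF library. Tagln had 187 to 226.4 CPM in GF ileum (median 197.8 CPM), against 141.5 to 207.1 CPM in convR ileum (median 161.2 CPM), and 0.29 ± 0.060 log2 (SE, adjusted p = 6.28e-04). Lmod1 averaged 26.6 ± 1.56 CPM in GF ileum and 24.1 ± 3.03 CPM in convR ileum (SD, n = 11 and 12), and its log2 fold change of 0.14 had an adjusted p of 0.0211. Smtn averaged 43.2 ± 4.16 CPM in GF ileum and 40.1 ± 5.51 CPM in convR ileum, which is 0.11 ± 0.061 log2 (SE, adjusted p = 0.153). Scaled by library size only, Mylk (log2 0.12, adjusted p = 0.158) and Lmod1 (0.09, adjusted p = 0.237) no longer passed, and without the libraries that stand apart Lmod1 did not (0.12, adjusted p = 0.0739).

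Both intermediate filament genes rose. Synm had 113.9 to 175 CPM in GF ileum (median 136.2 CPM), against 76.8 to 137.7 CPM in convR ileum (median 95.8 CPM), and 5 of 11 GF libraries lay above the highest convR library. Its log2 fold change was 0.43 ± 0.087 (SE, adjusted p = 4.97e-04), the largest after Actg2. Des had 142.7 to 233.1 CPM in GF ileum (median 172 CPM), against 100.3 to 199.1 CPM in convR ileum (median 127.5 CPM), and 0.39 ± 0.11 log2 (SE, adjusted p = 0.00747). The ranges of Des overlapped more, with 2 of 11 GF libraries above the highest convR library.

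**Figure D2:**
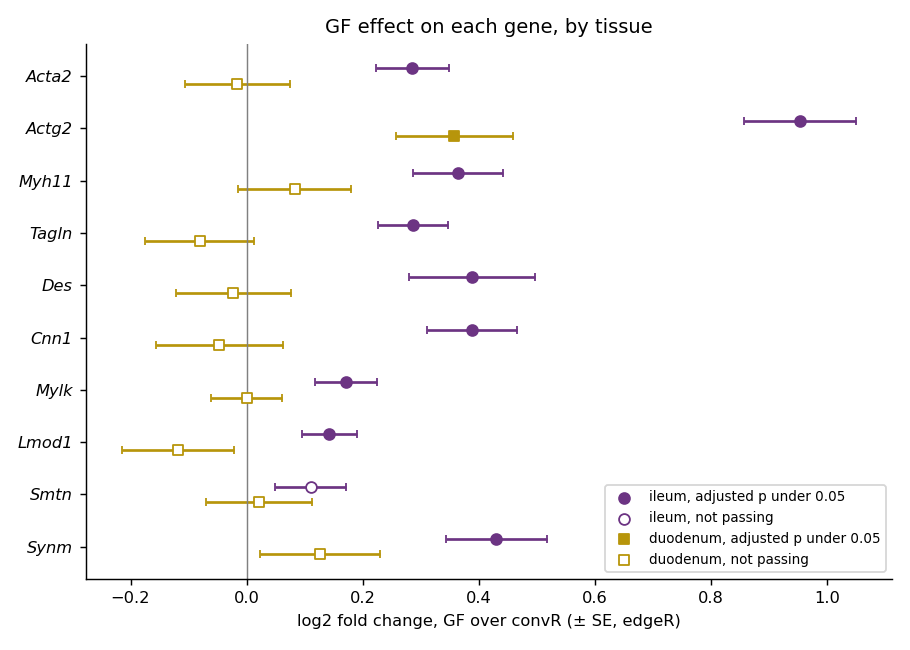
Log2 fold change of GF over convR (horizontal axis) for each member in ileum (circles) and duodenum (squares), with bars of ± 1 SE from edgeR; filled symbols have an adjusted p under 0.05. In ileum 9 of 10 symbols are filled, and Actg2 stands furthest right at 0.95, while in duodenum only Actg2 is filled, at 0.36.

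Relative to the other 9 members of the same library, Actg2 stood higher in GF. This measure, the log2 level of a gene minus the mean log2 level of the other 9, cancels the scaling between libraries. For Actg2 it ran from 0.01 to 0.50 in GF ileum (median 0.28), against -0.72 to 0.24 in convR ileum (median -0.43), and 7 of 11 GF libraries lay above the highest convR library. In duodenum it ran from -0.63 to -0.10 in GF (median -0.43), against -0.97 to -0.42 in convR (median -0.77), and 6 of 12 GF libraries lay above the highest convR library. Acta2 lay 1.17 to 1.28 above the other 9 in GF ileum (median 1.22), against 1.18 to 1.43 in convR ileum (median 1.3). For Acta2, Myh11, Tagln, Cnn1, Mylk and Lmod1 no GF library lay above the highest convR library in either tissue. Mylk stood lower in relation to the others in GF ileum, with a median of 2.12 in GF and 2.38 in convR, and so did Smtn, with -2.25 in GF and -2 in convR. Since each gene is also part of the mean for the others, these values are descriptions without a test.

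**Figure D3:**
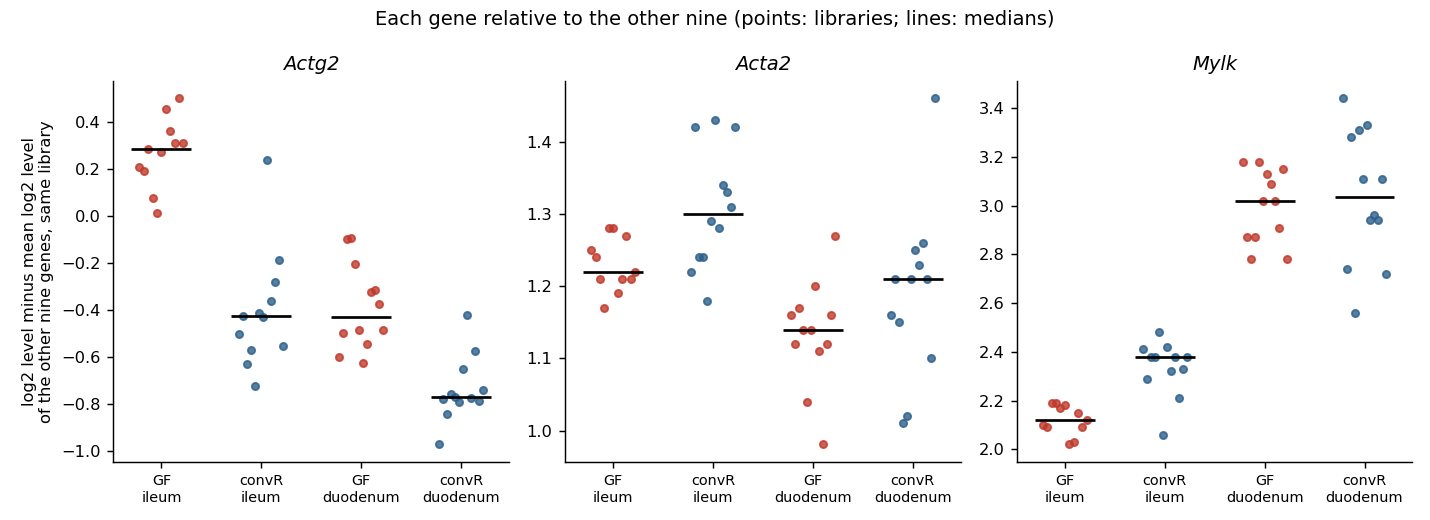
Log2 level of Actg2, Acta2 and Mylk minus the mean log2 level of the other 9 members in the same library (vertical axis), by group, with GF in red and convR in blue; points are libraries and lines are medians. Actg2 is centred at 0.28 in GF ileum and -0.43 in convR ileum, while Acta2 is centred at 1.22 in GF ileum and 1.3 in convR ileum.

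In the duodenum 1 of the 10 genes, Actg2, was higher in GF and 0 were lower, where 22.5% of all genes tested were higher. The median log2 fold change was -0.01 over the members and -0.01 over all genes tested. No member was without overlap, against 1.6% of all genes tested. Actg2 had 48.8 to 83.8 CPM in GF duodenum (median 56.2 CPM), against 35.8 to 68.8 CPM in convR duodenum (median 43.1 CPM). The ranges overlapped, with 8 of 12 convR libraries below the lowest GF library, and the log2 fold change was 0.36 ± 0.10 (SE, adjusted p = 0.0064). Scaled by library size only, the median of all genes moved by -0.13, and Actg2 stood at 0.23 (adjusted p = 0.11), 0.36 above that median.

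The other 9 members had log2 fold changes between -0.12 (Lmod1) and 0.13 (Synm) in duodenum. Acta2 had 122 to 185.4 CPM in GF duodenum (median 155.6 CPM), against 110.7 to 239 CPM in convR duodenum (median 143.4 CPM), which is -0.02 ± 0.091 log2 (SE, adjusted p = 0.902). Myh11 had 319.4 to 464 CPM in GF duodenum (median 386.4 CPM), against 256.7 to 595.8 CPM in convR duodenum (median 346.3 CPM), 0.08 ± 0.097 log2 (SE, adjusted p = 0.512). The upper end of the convR range was set by ZT6 replicate 1 for every member except Cnn1. That library had the highest scaling factor, 1.27, and a summed level of 1955 CPM, against 1472 CPM in ZT6 replicate 2. Without it, Synm passed as well (log2 0.20, adjusted p = 0.039), which gave 2 members, and without all libraries that stand apart Synm reached 0.26 (adjusted p = 0.0327) and Actg2 0.46 (adjusted p = 0.016).

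Levels in ileum were less even between convR libraries than between GF libraries. The coefficient of variation over libraries, which includes time of day, was 5.85% to 13.8% in GF ileum and 10.1% to 22.5% in convR ileum, and 9.48% to 16.2% in GF duodenum and 12.8% to 28.7% in convR duodenum. For each of the 10 genes and in both tissues it was higher in convR when all libraries were used. Without the libraries that stand apart, an alternative added after the data were seen, this held for 10 of 10 genes in ileum but for 4 of 10 in duodenum (Acta2, Actg2, Mylk and Synm), where the range was 9.87% to 18.4% in GF and 10.2% to 21% in convR. Leaving out convR duodenum ZT6 replicate 1 alone kept all 10 higher in convR, but brought Synm to 16.8% in convR duodenum, against 28.7% with it, and Smtn to 11.8%, against 20.7%. For Cnn1 it was 6.87% in GF ileum and 18.2% in convR ileum. These genes vary together within a library, so the 10 values are not independent, and the difference was not tested. The share of all genes with a higher value in convR was not computed, so nothing particular to these genes is read from the counts.

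A model of both tissues asked whether the effect of GF on each gene differed between ileum and duodenum. The difference passed for 3 of 10 members, Actg2, Tagln and Cnn1, each with a larger effect in ileum, where 4.58% of all genes tested did so. It passed with a lower effect in ileum for 0 members, against 7.69% of all genes tested. At an unadjusted p under 0.05 there were 9, all but Smtn. The share of all genes at this unadjusted cut was not computed, so nothing particular to the members is read from that count. For Actg2 the effect was 0.95 log2 in ileum and 0.36 in duodenum, a difference of 0.60 ± 0.15 (SE, adjusted p = 0.00441). For Tagln it was 0.29 in ileum and -0.08 in duodenum, a difference of 0.37 ± 0.12 (SE, adjusted p = 0.0296), and for Cnn1 it was 0.39 in ileum and -0.05 in duodenum, a difference of 0.44 ± 0.14 (SE, adjusted p = 0.0331). The remaining differences lay between 0.10 (Smtn, adjusted p = 0.659) and 0.42 (Des, adjusted p = 0.0653).

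How many of these differences passed depended on the libraries and on the model. Without the filter on low counts Cnn1 did not pass (0.45, adjusted p = 0.0646), which left 2 members. With the replicate number within a time as a block 5 members passed, Acta2 (0.32, adjusted p = 0.0254) and Des (0.44, adjusted p = 0.0413) being added, and DESeq2 also gave 5. Without the libraries that stand apart 1 passed, Actg2 (0.55, adjusted p = 0.0361), while Tagln stood at 0.29 (adjusted p = 0.104) and Cnn1 at 0.34 (adjusted p = 0.143). Leaving out GF duodenum ZT10 replicate 1 gave 6, among them Acta2, Des and Lmod1 (0.34, adjusted p = 0.0277), and leaving out GF duodenum ZT14 replicate 2, convR ileum ZT6 replicate 1 or convR ileum ZT22 replicate 1 gave 5 each. Leaving out GF duodenum ZT6 replicate 2 gave 1, with Tagln at 0.33 (adjusted p = 0.0523) and Cnn1 at 0.40 (adjusted p = 0.0573). Cnn1 also lost its call, at 0.38 to 0.42, without convR duodenum ZT14 replicate 1 or ZT22 replicate 2, convR ileum ZT18 replicate 1 or ZT10 replicate 2, or GF ileum ZT18 replicate 1. Acta2 also passed, at 0.33 to 0.34, without convR duodenum ZT18 replicate 1 or ZT22 replicate 1 or GF duodenum ZT18 replicate 2, and Des, at 0.45, without convR duodenum ZT14 replicate 2 or convR ileum ZT2 replicate 1. Actg2 passed in each of these fits.

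All 10 genes were higher in ileum than in duodenum, in GF and in convR alike. In GF, 10 of 10 passed, where 33.2% of all genes tested were higher in ileum, and for all 10 every ileum library lay above every duodenum library, against 8.97% of all genes tested. The median log2 fold change in GF was 1.31 over the members and 0.01 over all genes tested, from 0.46 for Mylk to 1.83 for Actg2. Scaling by library size only moved the median of all genes in GF by 0.12, and 10 of 10 still passed. In convR, 10 of 10 passed, where 24.9% of all genes tested were higher, and the tissues did not overlap for 5 of them, Acta2, Actg2, Myh11, Tagln and Cnn1, against 3.95% of all genes tested. The median in convR was 0.98, from 0.29 for Mylk to 1.24 for Tagln.

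The tissue difference was large for the actins and for Tagln and Cnn1, and small for Mylk and Smtn. Actg2 averaged 213 ± 23.2 CPM in GF ileum and 59.7 ± 9.69 CPM in GF duodenum (SD, n = 11 and 12), a fold of 3.54 (log2 1.83 ± 0.077 SE, adjusted p = 2.28e-14). In convR mice it averaged 110.9 ± 24.2 CPM in ileum and 47.2 ± 11 CPM in duodenum (SD, n = 12 each), a fold of 2.36 (log2 1.24 ± 0.087 SE, adjusted p = 1.57e-10). Cnn1 averaged 119.5 ± 8.21 CPM in GF ileum and 37.3 ± 5.17 CPM in GF duodenum, 3.18-fold higher, and 92.2 ± 16.8 CPM in convR ileum and 39.2 ± 10.7 CPM in convR duodenum, 2.36-fold higher. Mylk averaged 676 ± 54.4 CPM in GF ileum and 494 ± 46.8 CPM in GF duodenum, 1.38-fold higher, and 605 ± 61.2 CPM in convR ileum and 495 ± 63.2 CPM in convR duodenum, 1.22-fold higher. The GF and convR values of this comparison come from separate fits, and their difference is the one tested in the model of both tissues.

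Over the day, 9 of the 10 genes were higher in GF ileum at each of the 6 times, Smtn being lower at ZT6 (log2 -0.06). The median difference of the members was largest at ZT10, with 0.59 log2, and smallest at ZT22, with 0.10. Actg2 averaged 222.6 CPM in GF ileum and 114 CPM in convR ileum at ZT2, 221.5 CPM in GF and 142.3 CPM in convR at ZT6, and 230.3 CPM in GF and 92.1 CPM in convR at ZT10. It averaged 197.4 CPM in GF and 101.9 CPM in convR at ZT14, 223.3 CPM in GF and 100.4 CPM in convR at ZT18, and 190.1 CPM in GF and 114.9 CPM in convR at ZT22. At every time both GF libraries, or the single one at ZT2, lay above both convR libraries. In duodenum the sign changed with time: all 10 members were higher in GF at ZT2 and at ZT10 (medians of 0.23 and 0.20 log2), and all 10 were lower in GF at ZT6 (median -0.42). At ZT6 Acta2 had 155.4 and 137.7 CPM in GF duodenum, against 239 and 180.1 CPM in convR duodenum, the higher of these being the library with the scaling factor of 1.27. Each time holds at most 2 libraries a group, so these differences are given without a test. The members vary together within a library, so the counts by time do not stand for 10 separate results. The share of all genes with the same signs was not computed.

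**Figure D4:**
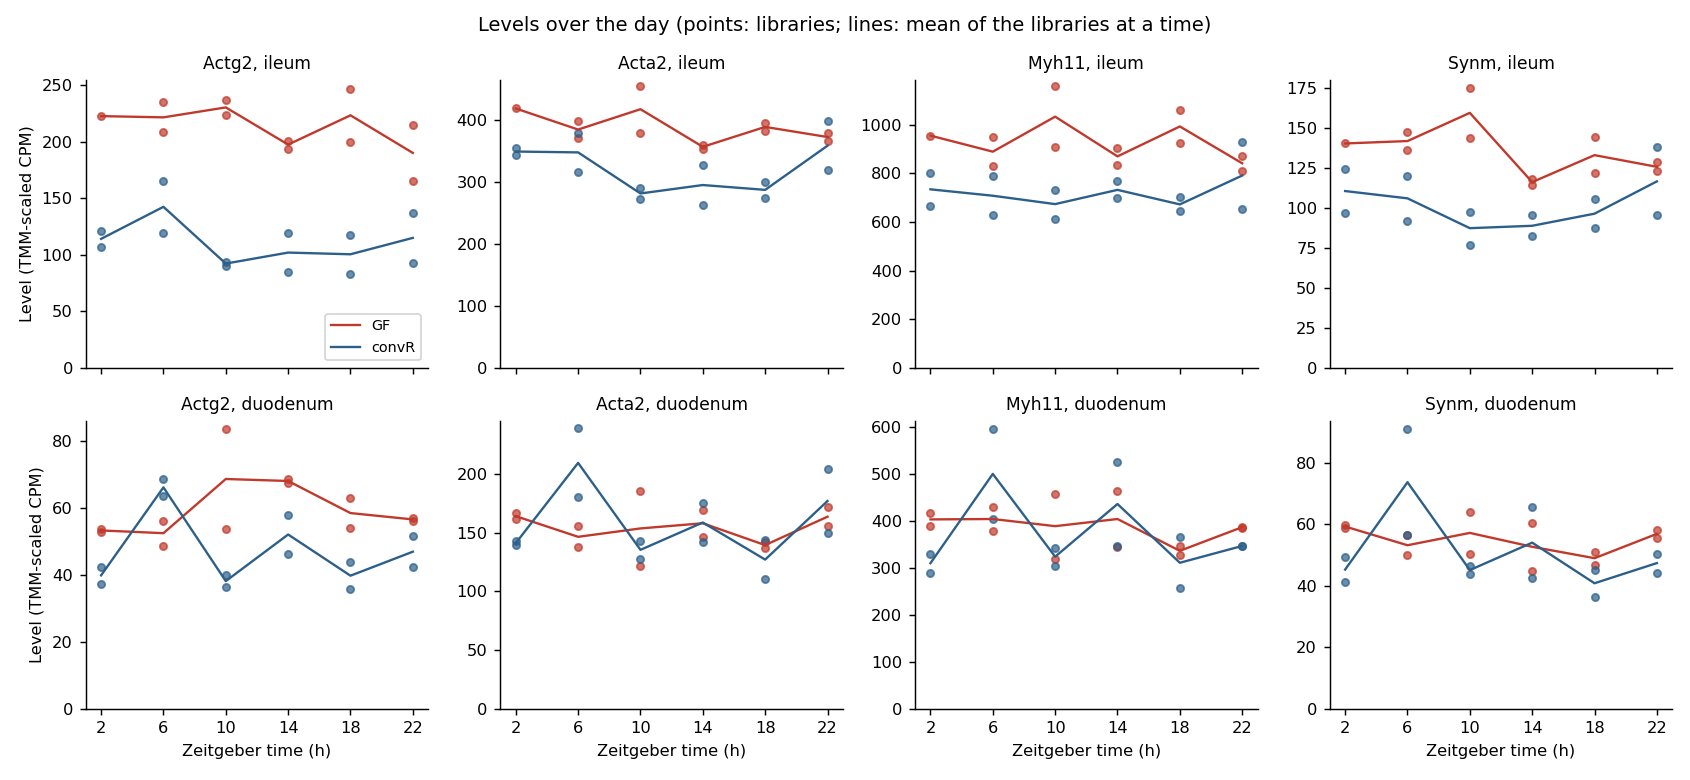
Levels of Actg2, Acta2, Myh11 and Synm in TMM-scaled CPM (vertical axis, from 0) against zeitgeber time in hours, in ileum (upper row) and duodenum (lower row), with GF in red and convR in blue; points are libraries and lines join the means at a time. In ileum the GF line lies above the convR line at every time, and in duodenum convR peaks at ZT6, where 1 library stands high.

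No member had a 24 h rhythm that passed in any group. With a cosine of 24 h fitted by edgeR, 0 of 10 passed in GF ileum, where 1.2% of all genes tested did, 0 of 10 in convR ileum (0.118%), 0 of 10 in GF duodenum (2.23%) and 0 of 10 in convR duodenum (0.0318%). At an unadjusted p under 0.05 there were 0 in GF ileum, 4 in convR ileum (Acta2, Mylk, Lmod1 and Smtn, lowest adjusted p = 0.492), 1 in GF duodenum (Actg2, adjusted p = 0.318) and 0 in convR duodenum. The share of all genes under this unadjusted cut was not computed. At the adjusted threshold DESeq2, and zeitgeber time as a factor of 6 levels, likewise gave 0 in each group. The fitted peak-to-trough range over the members had a median of 0.12 log2 in GF ileum and 0.37 in convR ileum, and 0.17 in GF duodenum and 0.32 in convR duodenum.

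Pooled over the groups, the members varied together from library to library, some of them loosely. With each gene centred on its group mean, the 45 pairs correlated at Pearson r of 0.263 to 0.94 over the 47 libraries, with a median of 0.643. Tagln and Cnn1 made the closest pair, and Actg2 and Mylk the loosest. Against the mean of the other 9 members Acta2 had r = 0.915 and Mylk r = 0.522. Within single groups this r was low for some: 0.0931 for Smtn in GF duodenum, and 0.313 and 0.292 for Lmod1 in GF and convR ileum. For Mylk it was 0.361 in GF duodenum and 0.401 in convR duodenum, against 0.847 in GF ileum and 0.79 in convR ileum. The highest, 0.972 for Des, was in convR duodenum, which holds the library with the scaling factor of 1.27. Values without the libraries that stand apart were not computed. Values of 1 library share its depth, its scaling and the share of muscle in the piece of tissue, so these correlations are descriptions.

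Among 12380 other genes, those most like the members were Dmpk (r = 0.879), a kinase known from muscle, Tpm2 (0.853), a tropomyosin, Flna (0.85), which crosslinks actin, Cald1 (0.85), caldesmon, which binds actin and myosin, Cd59a (0.85), an inhibitor of complement, and Pgm5 (0.838), a protein of muscle adhesion sites. Tpm2 averaged 210.1 ± 15.8 CPM in GF ileum and 151 ± 15.3 CPM in convR ileum, and 78.8 ± 10.5 CPM in GF duodenum and 74.1 ± 14 CPM in convR duodenum. Pgm5 averaged 107 ± 10.3 CPM in GF ileum and 86.7 ± 9.87 CPM in convR ileum, and 32.1 ± 3.76 CPM in GF duodenum and 29.96 ± 6.98 CPM in convR duodenum. Cd59a averaged 15.8 ± 2.11 CPM in GF ileum and 11.02 ± 1.63 CPM in convR ileum, and 6.43 ± 1.18 CPM in GF duodenum and 5.62 ± 1.69 CPM in convR duodenum. All 3 have the order of levels shown by the members, highest in GF ileum and next in convR ileum.

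Other genes of smooth muscle moved with the members in part. Of 27 further smooth muscle genes tested in ileum 14 were higher in GF, 2 were lower and 11 did not pass, and the median was 0.18 log2, where 19.5% of all genes tested were higher and 22.4% lower, with a median of 0.01. Tpm1, a tropomyosin, averaged 646 ± 35.5 CPM in GF ileum and 549.5 ± 65.5 CPM in convR ileum (log2 0.25, adjusted p = 3.00e-04). Tpm2 rose by 0.47 log2 (adjusted p = 1.7e-06) and Myl9, the regulatory light chain of smooth muscle myosin, rose by 0.36 (adjusted p = 3.9e-05), and was named after its values were seen. Lpp, a protein of adhesion sites, rose by 0.23 (adjusted p = 0.0374), while Flna averaged 788 ± 110 CPM in GF ileum and 743 ± 107 CPM in convR ileum and did not pass (adjusted p = 0.501). The 2 that fell, named for this reason, were Sync, which binds desmin (-0.74), and Itga8, an integrin chain (-0.70). In duodenum 5 of 27 were higher in GF, among them Itga7, Ldb3, Lpp and Vcl, and 5 lower (Sync, Itga8, Fhl1, Dmd and Actn1), with a median of -0.04. Neither count was above the share of all genes tested there, 22.5% higher and 23.8% lower.

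None of the known regulators of the muscle genes tested passed as higher in GF ileum. Of 15 regulators tested 0 were higher and 4 lower, namely Heyl (log2 -1.35), Mef2c (-0.90), Nkx2-3 (-0.49) and Foxf1 (-0.46), with a median of 0.10 over the list, and the count of lower genes is near the 22.4% of all genes tested. The 3 most abundant, Klf4, Gata6 and Mkl2, did not pass in ileum, with log2 fold changes of 0.18, 0.14 and 0.14. Srf (-0.08, adjusted p = 0.209) and the myocardin gene Myocd (0.10, adjusted p = 0.461), named for their role, did not pass in ileum either. In duodenum 3 were higher (Gata6, Klf4 and Mef2d) and 5 lower (Mef2c, Heyl, Foxf1, Elk1 and Nkx2-3). Of all genes tested in duodenum, 22.5% were higher and 23.8% lower. There Gata6, a transcription factor also made by the epithelium, averaged 155 ± 27.2 CPM in GF duodenum and 99.5 ± 14.1 CPM in convR duodenum (log2 0.63, adjusted p = 2.61e-06).

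Genes of contraction signalling, receptors and channels changed about as often as genes in general. Of 33 tested in ileum 6 were higher in GF, 7 lower and 20 did not pass, with a median of 0.08, where 19.5% of all genes tested were higher and 22.4% lower. The potassium channel genes Kcnj8 (0.47), Kcnmb1 (0.35) and Kcnma1 (0.21) were among the 6, and the tachykinin receptor Tacr1 (-0.69) and the calcium release channel Itpr1 (-0.38) among the 7, all named after their values were seen. Atp2a2, a calcium pump of the sarcoplasmic reticulum and among the most abundant of the list, did not pass in ileum (log2 0.02, adjusted p = 0.827). Of 16 non-muscle paralogues of the contractile genes 2 were higher, Myh14 (0.31, adjusted p = 0.00486) and Tagln2 (0.44), and 7 lower, with a median of -0.08. Cytoplasmic actin Actb averaged 8240 ± 876 CPM in GF ileum and 7635 ± 551 CPM in convR ileum and did not pass (log2 0.10, adjusted p = 0.159).

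Fibroblast and endothelium markers were mostly lower in the same comparison, where 22.4% of all genes tested were lower. Of 15 fibroblast markers 11 were lower in GF ileum and 2 higher (Fbln1 and Pi16), with a median of -0.35, and their summed level ran from 681 to 925 CPM in GF ileum, against 821 to 1198 CPM in convR ileum. Of 10 endothelium markers 8 were lower and 0 higher, with a median of -0.37, and their summed level ran from 65.4 to 90.7 CPM in GF ileum, against 84.6 to 127.9 CPM in convR ileum. No marker of either list was at 0 in all libraries. In duodenum 8 of 14 fibroblast markers and 1 of 10 endothelium markers (Pecam1) were lower in GF, where 23.8% of all genes tested were lower. The part of these cells in the difference of the muscle genes was not tested.

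**Figure D5:**
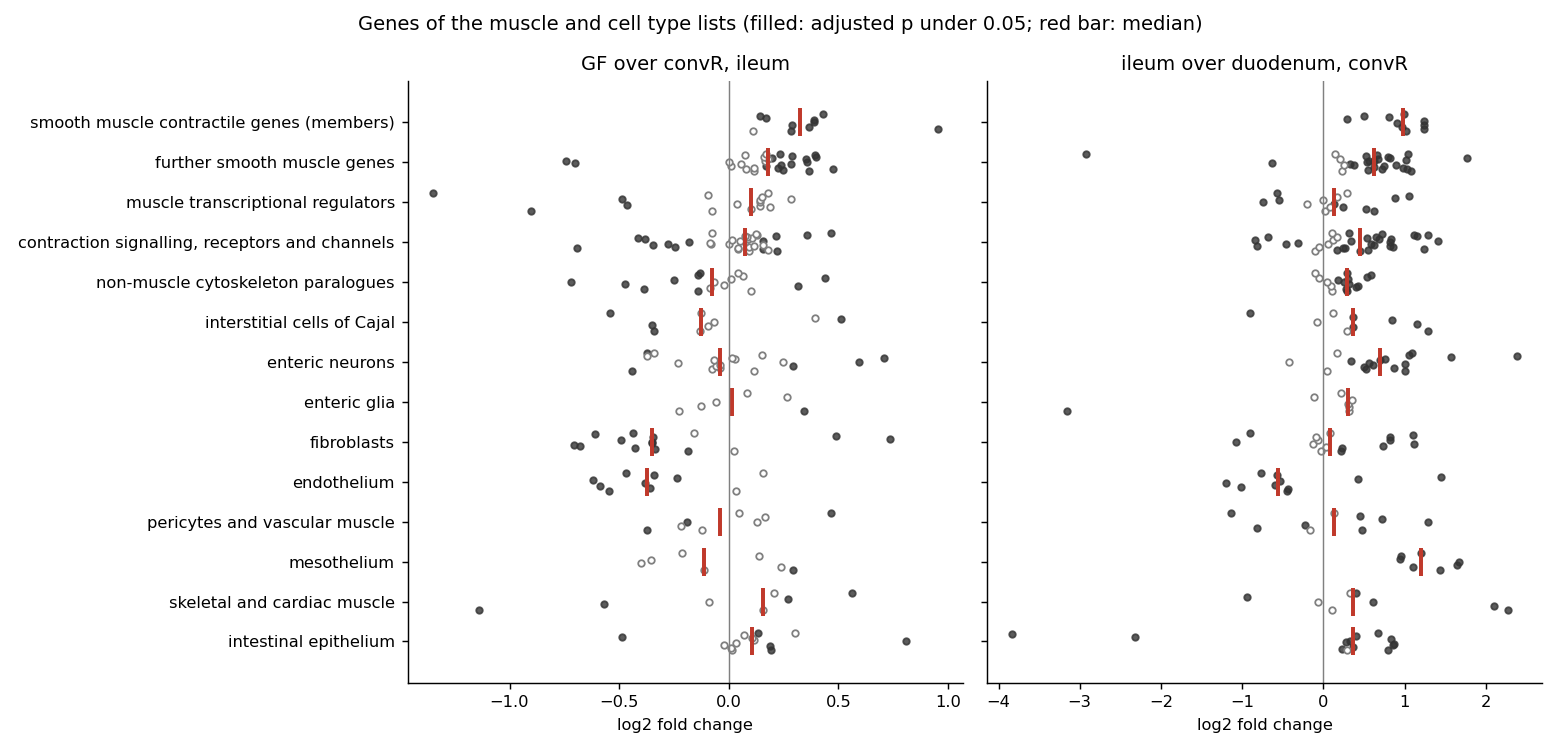
Log2 fold change (horizontal axis) of each tested gene of the muscle and cell type lists, for GF over convR in ileum (left) and for ileum over duodenum in convR (right); filled points have an adjusted p under 0.05 and red bars are medians. The medians for GF over convR are 0.33 for the contractile genes, 0.18 for further smooth muscle genes, -0.35 for fibroblasts and -0.37 for endothelium.

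Between tissues the lists moved in part as they did between GF and convR ileum. Of the 27 further smooth muscle genes 22 were higher in GF ileum than in GF duodenum and 2 lower (Ckb and Itga8), with a median of 0.93, and in convR 21 were higher and the same 2 lower, with a median of 0.63. Markers of the outer wall lining moved the same way: all 6 mesothelium markers tested in GF were higher in ileum, with a median of 1.35, and all 7 in convR, with a median of 1.21. Enteric neuron markers were higher in ileum for 13 of 17 in GF and 14 of 17 in convR, with 0 lower in either. Endothelium markers were lower in ileum for 8 of 10 in GF and in convR, and higher for Prox1 and Lyve1, genes of lymphatic vessels. For the counts of this paragraph, 33.2% of all genes tested were higher in ileum and 33.4% lower in GF. In convR 24.9% were higher and 24.8% lower. Of 15 fibroblast markers 5 were higher and 6 lower in GF ileum than in GF duodenum, with a median of -0.02, and in convR 7 were higher and 2 lower (Fbln1 and Cd81), with a median of 0.08. Epithelium markers were higher in ileum for 8 of 13 in GF and 10 of 13 in convR, and lower for Alpi and Apoa4 in both. The summed level of the mesothelium list, most of it Krt19, which the epithelium also makes, ran from 1088 to 2128 CPM in GF ileum and 521.7 to 878.3 CPM in GF duodenum, and from 1051 to 1550 CPM in convR ileum and 559.4 to 768.6 CPM in convR duodenum. The part of tissue composition in the tissue difference of the contractile genes was not tested.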

How the data were processed

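RNA sequencing was done on 47 libraries. Per the labels, ribosomal RNA was depleted and 250 ng of total RNA went into each stranded library. Per the submitters' processing notes, reads were aligned with STAR 2.4.0i to mm10. The deposited values are raw counts of reads over exons, with the summed exon length of each gene. How reads were counted (program, annotation, strand) is not given in the sources used here.

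These counts were tested as deposited with edgeR 4.0.16 in R 4.3.3: TMM scaling within each comparison, the edgeR filter at a minimum of 10 counts, quasi-likelihood tests (two-sided) with zeitgeber time as a factor, and Benjamini-Hochberg adjustment over all genes tested at a threshold of 5%. The difference of GF effects is an interaction term, and rhythms are a cosine of 24 h. Shown levels are CPM scaled by TMM over all 47 libraries, and 0.5 was added before log2 values of single libraries. The scripts were tested on simulated data. Depth was 22.55 to 41.91 M counts per library, and the chi-square per degree of freedom was 18.4 to 159 over 23 pairs of replicates, so no library was counted as a duplicate.

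The members and gene lists were chosen with earlier results of these data known, as was the definition of libraries that stand apart: pancreas or stomach markers above a mean of 100 CPM, a TMM factor above 1.2 or an ileum with less than 1000 CPM of Fabp6. Named besides the members are the 3 most abundant genes of each list, the 6 genes most like the members (mean of at least 2 CPM), and others where so stated; some of these are not reported here. Alternatives were library size only, no filter, DESeq2 1.42.0, the replicate number as a block, time as a factor, and libraries left out. In convR, deviations of ileum and duodenum libraries with equal numbers correlated at r = 0.246 to 0.559 at 6 of 6 times. The labels do not say whether such libraries share a mouse, and the source of this likeness was not tested. In duodenum, over GF and convR, Fabp6 (scaled by library size) was 0.96 to 2.41 CPM in replicate 1 and 0.21 to 0.68 CPM in replicate 2. For the other pairs of groups the correlations crossed 0 (lowest -0.0552).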

Additional observations from a re-analysis of the deposited data

Results flagged for a closer look

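The effect of GF differed between ileum and duodenum for 3 members by the interaction test of edgeR over 19000 genes. For Actg2 the effect in ileum exceeded that in duodenum by 0.60 log2 (adjusted p = 0.00441), with GF higher at 6 of 6 times in ileum and at 5 of 6 in duodenum. For Tagln it was 0.37 (adjusted p = 0.0296), with GF higher at 6 of 6 times in ileum and 3 of 6 in duodenum. For Cnn1 it was 0.44 (adjusted p = 0.0331), likewise with 6 of 6 times in ileum and 3 of 6 in duodenum. Without the libraries that stand apart, 7 of which are of duodenum, Actg2 passed (adjusted p = 0.0361), and Tagln and Cnn1 did not (adjusted p = 0.104 and 0.143).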

How the results depend on the processing

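Of 450 values of members under alternatives other than leaving out 1 library, 428 kept their direction and their side of the threshold, and of the 10 that changed sign 0 passed. Values of the rhythm fits among these are peak-to-trough ranges, which are never negative, so only their side of the threshold could change. The count of members higher in ileum than in duodenum was 10 under every alternative run, and the rhythm count was 0 in all 71. With library size only the GF effect gave 0 members in duodenum, without the libraries that stand apart 2, and with each library left out 1 to 2. The difference of GF effects gave 5 members with DESeq2, 5 with the replicate block, 1 without the libraries that stand apart, and 1 to 6 with each library left out. The block changed no other call.

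The values that changed sign were small. In duodenum, without the libraries that stand apart, Acta2 stood at 0.0938, Tagln at 0.00714, Des at 0.142 and Cnn1 at 0.086, with library size only Myh11 at -0.056, Mylk at -0.134, Smtn at -0.117 and Synm at -0.0133, and with no filter Mylk at -0.00412. With each library left out, the ranges were -0.0677 to 0.0333 for Acta2, -0.0608 to 0.0382 for Des, -0.111 to 0.016 for Cnn1, -0.031 to 0.029 for Mylk and -0.0173 to 0.0898 for Smtn. The difference of GF effects for Smtn was -0.0498 without the libraries that stand apart. The cause was not tested. The lowest value of any member in any library was 8.42 CPM (Lmod1), and the part of depth was not tested.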

Other observations

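For cells that pace or steer the muscle, some markers passed between GF and convR ileum, where 19.5% of all genes tested were higher and 22.4% lower. Nothing particular to these short lists is read from their counts. Of 9 markers of interstitial cells of Cajal 1 was higher in GF, Edn3 (log2 0.51), and 3 were lower, Prkcq, Cd34 and Ano1, while Kit, their defining receptor, averaged 35.4 ± 5.45 CPM in GF ileum and 38.2 ± 5.50 CPM in convR ileum (adjusted p = 0.135). Of 18 enteric neuron markers 3 were higher, Gal (0.71), Nefm (0.59) and Prph (0.29), and 2 lower, the neuropeptide genes Vip (-0.44) and Tac1 (-0.37). Of 6 enteric glia markers 1 was higher, Erbb3 (0.34), which the epithelium also makes. Of 8 markers of pericytes and vascular muscle 1 was higher, Kcnj8, and 2 lower, Cspg4 and Pdgfrb. Of 7 mesothelium markers 1 was higher, Krt19 (0.30). Of 7 genes of skeletal and cardiac muscle 2 were higher, Tnnt2 and Ckm, and 2 lower, Acta1 and Actc1. Of 13 epithelium markers 4 were higher, Fabp2 (0.81), Epcam, Cdh1 and Cldn7, and 1 lower, Sis (-0.49). Of the pancreas list 2 were tested and 1 was lower (Clps), and of the stomach list 0 were tested in ileum. The muscarinic receptor Chrm3, which carries the cholinergic signal to contract and is also made by the epithelium, stood out in duodenum after its values were seen: it was higher in GF by 1.44 log2 (adjusted p = 9.8e-08), and its GF effect in ileum was lower than that in duodenum by 1.51 log2 (adjusted p = 8.4e-08).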
